A study of Gallus gallus with 3 samples.

Results

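The somatopleure cells described here are the cells that the authors' annotation of embryonic chicken forelimb-field cells places in the finer class of that name. They number 255 of 3262 annotated cells. The study profiled single cells from wild-type, untreated embryos at 3 Hamburger-Hamilton stages, HH10 (embryonic day 1.5), HH14 (embryonic day 2.5) and HH18 (embryonic day 3.5). Each stage is 1 library of tissue cut out beside the somites, with male and female embryos pooled. The number of embryos behind a library is not given in the sources used here. The class holds 15 of 1210 cells at HH10 (1.24%, 95% exact binomial interval 0.695 to 2.04%), 165 of 1313 at HH14 (12.6%, 10.8 to 14.5%) and 75 of 739 at HH18 (10.1%, 8.07 to 12.6%).

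In the early embryo the lateral plate mesoderm splits around the coelom. Its outer, somatic layer lies under the ectoderm and forms the somatopleure with it, while its inner, splanchnic layer lies on the endoderm and gives rise to the muscle and connective tissue of the gut wall. The somatic layer is the source of limb bud mesenchyme and of the connective tissue of the ventral body wall, and it runs on without a break into the wall of the amnion.

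A class drawn from expression values differs from other classes by construction, and each stage has 1 library. All values are therefore descriptions, with no p-value. Levels are summed UMIs (molecules counted once each) of a class in 1 library, scaled to a total of 1000000 over the same cells (CPM), with exact 95% Poisson intervals. Folds carry exact 95% intervals, and all intervals cover counting error only, not the spread between embryos or libraries. A gene was measured in a comparison with 30 or more UMIs in the 2 sums, and was counted as higher or lower past a fold of 2. The comparisons within a library share the somatopleure cells.

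The low number of UMIs per cell was the first feature of the class. The 3 libraries hold 11855255, 11267879 and 6557527 UMIs at HH10, HH14 and HH18, of which the somatopleure cells hold 64778, 1244339 and 388120. The median somatopleure cell had 2625 UMIs at HH10, 5335 at HH14 (quartiles 3315 and 9543) and 3395 at HH18 (2580.5 and 7081). At HH14 this was the 4th lowest median of 16 classes, below splanchnic lateral plate at 7183 and amnion at 6287.5. At HH18 it was the 2nd lowest of 9 classes, above the cells that the authors called low count, at 2668, and far below limb bud mesenchyme at 10313.5 and flank lateral plate at 8923.5. The ranges overlapped at both stages, since 10% of somatopleure cells had more than 15261 UMIs at HH14 and more than 10117 at HH18. Genes detected per cell followed, with medians of 1934 at HH14 and 1396 at HH18.

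The 2 shallow classes differed in another quality measure. The median share of UMIs in mitochondrial genes was 2.08% in somatopleure cells at HH14 and 2.59% at HH18, against 0.212% and 0.381% in the low count cells. After every cell was thinned at random to 2300 UMIs, the median somatopleure cell had 1109 genes at HH14, against 1138 in splanchnic cells. At HH18 the thinned medians were 1110.5 in somatopleure, 1189 in limb bud mesenchyme and 1208 in flank. The thinning left out 10 of the 165 and 11 of the 75 somatopleure cells, which were shallower. The part of depth in the differences below was not tested, but the counts of genes, and most genes named at HH18, are also given against comparison cells with no more UMIs than the 90th percentile of somatopleure cells, called depth-limited here. This is an upper limit only, and the kept cells stayed deeper than somatopleure in each comparison. At HH14 the kept cells had medians of 6857 UMIs in splanchnic lateral plate, 5536 in amnion and 5805 over all other classes, against 5335. At HH18 they had 6655 in limb bud mesenchyme, 5874 in flank and 4200.5 over all other classes, against 3395, and kept HH14 somatopleure cells had 4256.

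**Figure D1:**
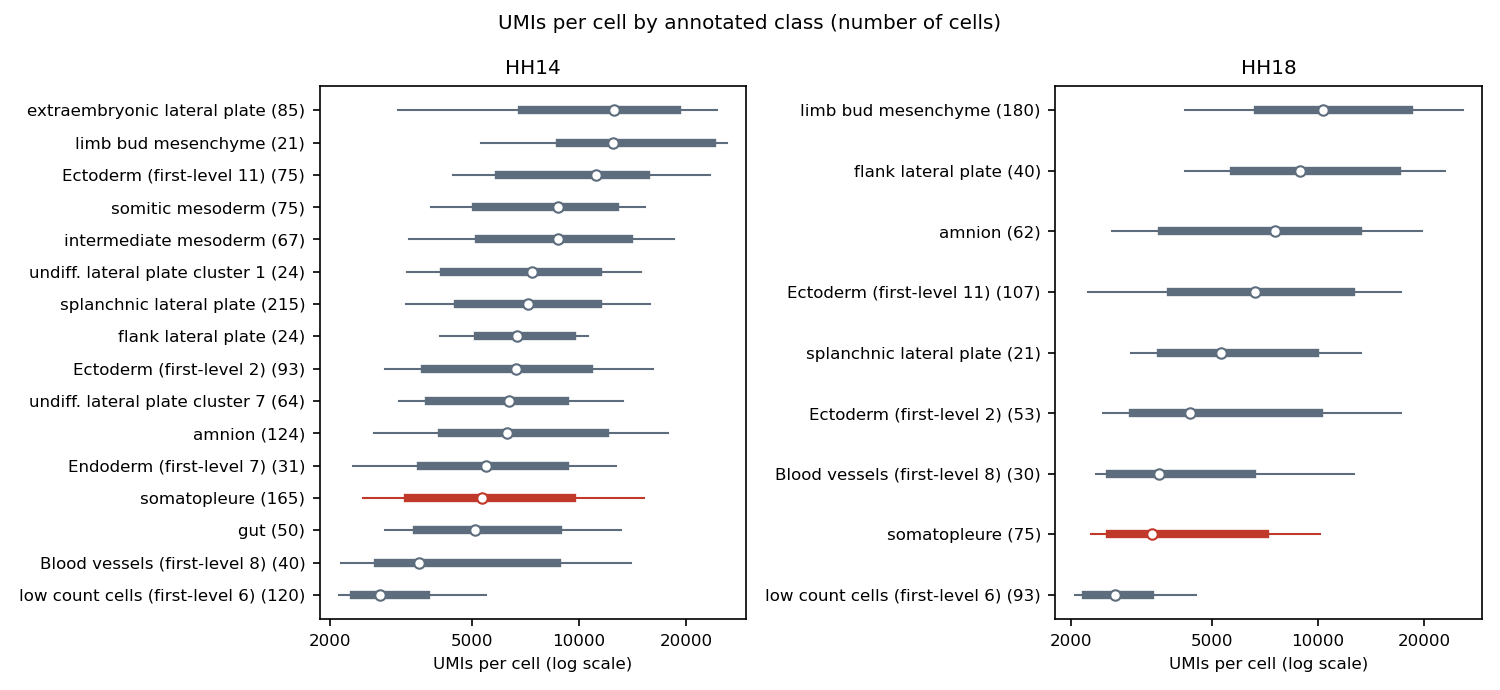
UMIs per cell (log axis) of each annotated class at HH14 (left) and HH18 (right), with the number of cells in brackets. Dots are medians, thick bars quartiles and thin bars the 10th to 90th percentiles; somatopleure, in red, has a median of 5335 UMIs at HH14 and 3395 at HH18, where only the low count cells lie lower.

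By the broader first-level annotation, 221 of the 255 cells (86.7%) were lateral plate mesoderm. Another 12 were limb bud mesenchyme, 10 somitic mesoderm, 6 blood vessels, 4 primitive mesoderm, 1 gut and 1 a low count cell. At HH18 the 7 limb bud cells held 15.2% of the UMIs of the class. The 3 blood vessel cells there held 12580 UMIs, 3.24% of the class, but 268 of its 343 UMIs of the haemoglobin HBBR, 118 of 147 of the haemoglobin HBA1 and all 75 of CSTA. They also held 12 of 13 UMIs of PLEK, 11 of 12 of ITGB3 and all 6 of GP9, 3 genes known from mammalian platelets. Summed haemoglobin at HH18 was 2272 CPM in the class and 943 CPM without these cells, against 586 in limb bud mesenchyme and 640 in flank. Amnion had 695 CPM, the ectoderm classes 799 and 834, splanchnic lateral plate 962, the blood vessel class 1187 and low count cells 3729. The value of 943 CPM thus lay within the range of other classes. At HH14 summed haemoglobin in the class was 954 CPM, and 668 CPM without the 3 blood vessel cells there. Several results that rest on the blood vessel cells are given with and without them. At HH18, leaving them out gave 128 higher and 1511 lower of 8890 measured genes against all other classes. The counts were 89 and 1004 of 6844 against limb bud mesenchyme, and 109 and 447 of 3825 against flank.

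The markers given for the class are IRX3, an Iroquois homeobox factor, PRRX1, a paired-related homeobox factor of limb and lateral plate mesenchyme, and TWIST1, a mesenchymal factor of the basic helix-loop-helix family. IRX3 stood at 30.9 CPM at HH10 (2 UMIs), 144 at HH14 (124 to 167) and 196 at HH18 (154 to 245). PRRX1 stood at 386 CPM at HH10 (25 UMIs), 733 at HH14 (686 to 782) and 1154 at HH18 (1050 to 1266). TWIST1 stood at 61.7 CPM at HH10 (4 UMIs), 185 at HH14 (162 to 210) and 350 at HH18 (294 to 414). All 3 were present in each library, and the few cells at HH10 left IRX3 and TWIST1 with counts too small for a comparison.

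None of the 3 was highest in somatopleure. At HH14 IRX3 was at 239 CPM in limb bud mesenchyme and 224 in flank, against 44.0 in amnion and 10.8 in splanchnic lateral plate. PRRX1 at HH14 was at 1569 CPM in limb bud mesenchyme, 1351 in flank, 988 in amnion and 93.8 in splanchnic lateral plate. TWIST1 at HH14 was at 611 CPM in limb bud mesenchyme, 420 in flank, 66.1 in amnion and 27.0 in splanchnic lateral plate. Somatopleure thus lay between the limb bud and flank mesenchyme on one side and the splanchnic layer on the other for each marker, with no overlap of intervals except for IRX3 against flank, whose interval began at 160 CPM. At HH18 the IRX3 level of 196 CPM overlapped limb bud mesenchyme at 224 (206 to 244) and flank at 219 (180 to 266). PRRX1 at HH18 was higher in both, at 1985 and 2312 CPM, and TWIST1 was higher in limb bud mesenchyme at 605 CPM and level with flank at 349.

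**Figure D2:**
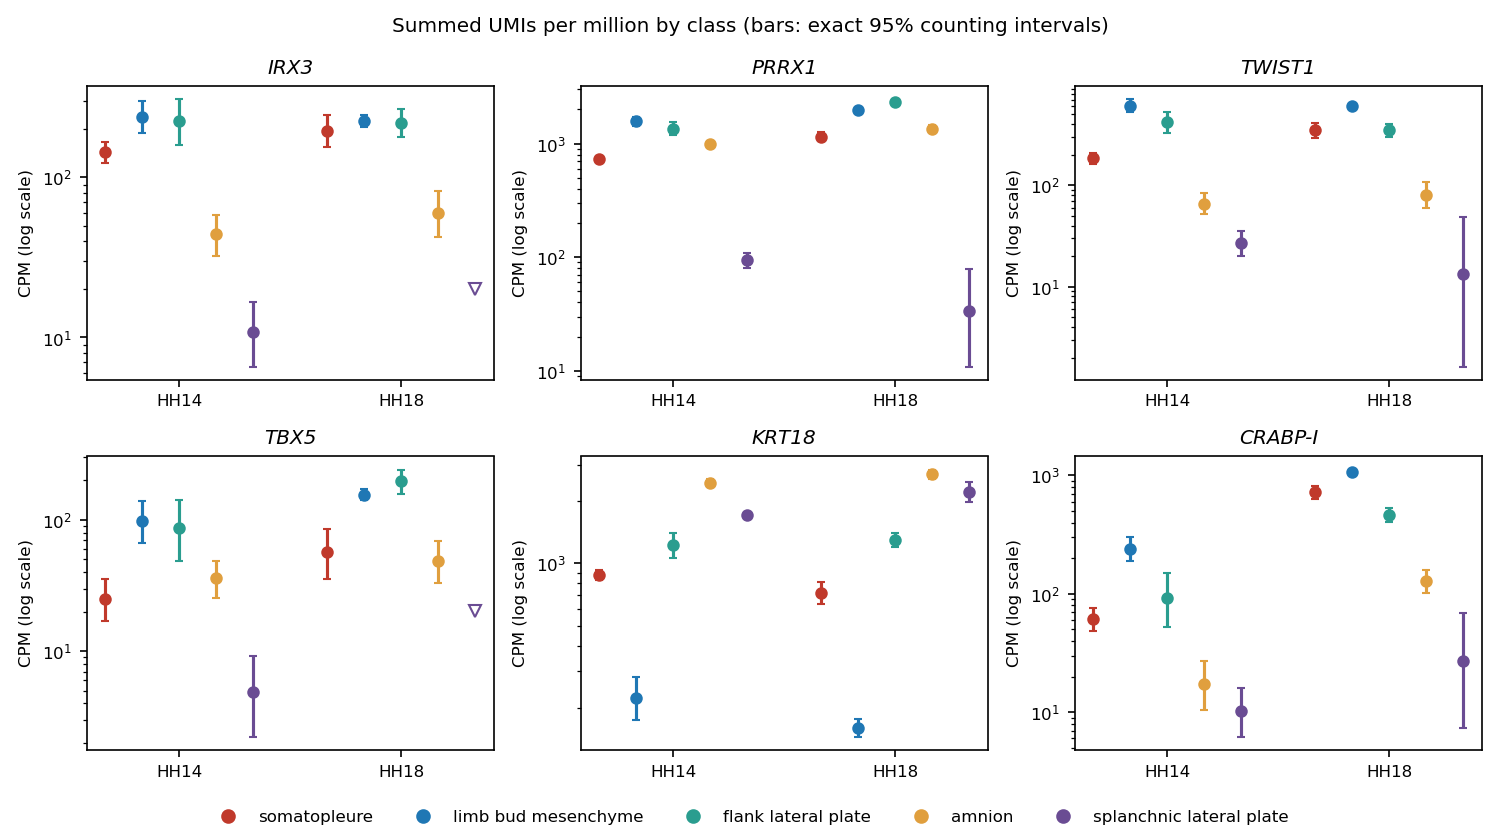
Levels in CPM (log axis) of IRX3, PRRX1, TWIST1, TBX5, KRT18 and CRABP-I in somatopleure, limb bud mesenchyme, flank, amnion and splanchnic lateral plate at HH14 and HH18. Bars are exact 95% Poisson intervals; open triangles mark a count of 0 at the level that 3 counts would give, as for IRX3 and TBX5 in splanchnic cells at HH18. PRRX1 in somatopleure was 733 CPM at HH14 and 1154 at HH18.

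Cell by cell the markers were unevenly seen. At HH14 all 3 had a UMI in 45 of 165 cells (27.3%), and none had one in 30 (18.2%). At HH18 all 3 had a UMI in 27 of 75 cells (36.0%), and none in 4 (5.33%), of which 2 were blood vessel cells by the first-level annotation. After thinning to 2300 UMIs, all 3 were seen in 11 of 155 cells at HH14 (7.10%) and in 12 of 64 at HH18 (18.8%). PRRX1 was seen in 67.7% of thinned somatopleure cells at HH14 (76.4% unthinned), against 15.1% in splanchnic cells and 3.0% in blood vessel cells, a class that should lack it. At HH18 PRRX1 was seen in 87.5% (90.7% unthinned), close to 92.5% in flank and 96.6% in limb bud mesenchyme. IRX3 was seen in 23.2% of thinned somatopleure cells at HH14 (interval 16.8 to 30.7%, 49.7% unthinned), 2.8% of splanchnic cells and 0 of 33 blood vessel cells. At HH18 it was seen in 42.2% (29.9 to 55.2%), next to 41.8% in limb bud mesenchyme.

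The anatomical somatopleure includes ectoderm, but these cells carried few of its transcripts. Of 16 surface ectoderm markers, 12 had at least 1 UMI in the class at HH14 and 8 at HH18. TFAP2A, TFAP2C and WNT7A, of this list, were at 0 at both stages. EPCAM and CDH1, also of this list, had 19 and 9 UMIs at HH14 outside the blood vessel cells. The list summed to 509.5 CPM at HH14 and 422.6 at HH18, within a range over classes of 75.9 to 4539 at HH14 and 74.5 to 7049 at HH18, and KRT7, a keratin of simple epithelia, made up 467 and 366 CPM of it. Of 12 endothelial markers, 8 were detected at HH14 and 7 at HH18, with CDH5, KDR and TIE1 at 0 at both stages. EGFL7, of the same list, was not near 0. With the blood vessel cells left out it had 78 UMIs at HH14 (63.2 CPM) and 6 at HH18 (16.0 CPM). Somite markers summed to 33.8 and 38.6 CPM and endoderm markers to 116.5 and 69.6 CPM, against 1945 in somitic mesoderm and 7249 in endoderm at HH14. The label, which in anatomy spans ectoderm and mesoderm, was thus given here to cells with few transcripts of the surface ectoderm list other than KRT7.

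Against the splanchnic layer of the same library, HH14 somatopleure differed in many of the transcription factors that mark the 2 layers. Of 6846 measured genes, 120 (1.75%) were past 2-fold higher and 660 (9.64%) past 2-fold lower in somatopleure. Of the 10 measured genes of a 16-gene somatic layer list, 6 were higher and none lower, with a median log2 fold of 1.91, against -0.11 over all measured genes. IRX3 was 13.3-fold higher (8.39 to 22.4), PRRX1 7.81-fold (6.64 to 9.24) and TWIST1 6.86-fold (5.03 to 9.51). These 3 are the class markers, so their excess only describes the label. They are also among the 6 higher genes and enter the median, so the count and median of the list partly describe the label too. Among the others, the aristaless-type homeobox gene ALX1 was at 31.3 CPM against 2.16, 14.5-fold higher (5.24 to 56.0), and the homeobox gene MSX2 at 25.7 against 3.77, 6.82-fold higher (2.95 to 18.3).

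Of the 15 measured genes of the splanchnic layer list, 9 were lower in somatopleure and none higher, with a median log2 fold of -1.84. NKX3-2, a homeobox gene of splanchnic mesoderm and sclerotome, was at 6.43 CPM in somatopleure and 139 in splanchnic lateral plate, 21.6-fold lower (10.8 to 50.6). FOXF1, a forkhead gene of visceral mesoderm, was at 3.21 against 51.7 CPM, 16.1-fold lower (6.09 to 60.3). NKX2-3, a homeobox gene of gut mesoderm, had 1 UMI in somatopleure and 57 in splanchnic cells, a ratio of 38.2 (6.59 to 1536). HLX, GATA4 and ISL1 were lower by 9.17-, 7.91- and 7.11-fold, and these splanchnic regulators were near the bottom of what the depth can show in somatopleure, with 9, 5 and 5 UMIs. The difference was smaller for the HAND genes, a pair of basic helix-loop-helix factors of lateral plate. HAND2 stood at 288 CPM in somatopleure and 364 in splanchnic cells, short of 2-fold, and HAND1 at 150 against 325, 2.16-fold lower (1.83 to 2.56).

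Genes of limb initiation and HOX genes also separated the layers. TBX5, the T-box factor required for forelimb outgrowth, was at 24.9 CPM (31 UMIs) in somatopleure and 4.85 (9 UMIs) in splanchnic cells, 5.14-fold higher (2.39 to 12.3). FGF10, the growth factor by which limb mesenchyme signals to the ectoderm, was at 23.3 CPM (29 UMIs) against 1.08 (2 UMIs), a ratio of 21.6 (5.47 to 187). Both were also present in HH14 limb bud mesenchyme, TBX5 at 97.6 CPM and FGF10 at 50.4. HOX genes are transcribed in overlapping domains along the body axis in the order of their places in the clusters. Among middle and 5′ HOX genes 6 were measured, of which 4 stood higher in somatopleure and none lower, with a median log2 fold of 1.49. HOXA9 was at 34.6 CPM against 2.70, 12.8-fold higher (5.09 to 41.5), and HOXA7 at 98.8 against 32.9, 3.01-fold higher (2.19 to 4.16).

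The 16 genes of the 3′ HOX list were split, with 5 higher, 2 lower and a median log2 fold of 0.19. HOXA4 was at 103 CPM against 38.3, 2.69-fold higher (2.0 to 3.64), and HOXC5 4.10-fold higher (2.27 to 7.78), while HOXB5 was at 161 CPM against 370, 2.30-fold lower (1.97 to 2.71). The 5 higher genes belong to the HOXA, HOXC and HOXD clusters and the 2 lower ones to HOXB.

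Signalling and matrix genes also differed. PTCH1, the Hedgehog receptor, was at 8.04 CPM against 28.6 in splanchnic cells, 3.56-fold lower (1.79 to 7.84), and HHIP, a Hedgehog-binding inhibitor, had 3 UMIs against 37, a ratio of 8.27 (2.62 to 41.9). Both genes are transcriptional targets of the pathway. Its list had 2 of 10 measured genes lower and none higher, against 9.64% lower over all measured genes, too few genes to set the list apart. Of 16 measured BMP and TGF-beta pathway genes, 9 were lower and none higher. Of 25 extracellular matrix genes, 13 were lower and none higher, among them FN1, which encodes fibronectin, at 84.4 against 173 CPM. In retinoic acid signalling, CRABP-I, a cytoplasmic retinoic acid binding protein, was 5.96-fold higher at 61.1 CPM (3.57 to 10.4), and RDH10, which makes retinal for retinoic acid synthesis, was 2.83-fold lower at 113 CPM (2.35 to 3.43). With the 189 depth-limited splanchnic cells of 215, 108 of the 120 higher genes were still measured and 89 still past 2-fold, as were 431 of 522 of the lower ones.

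**Figure D3:**
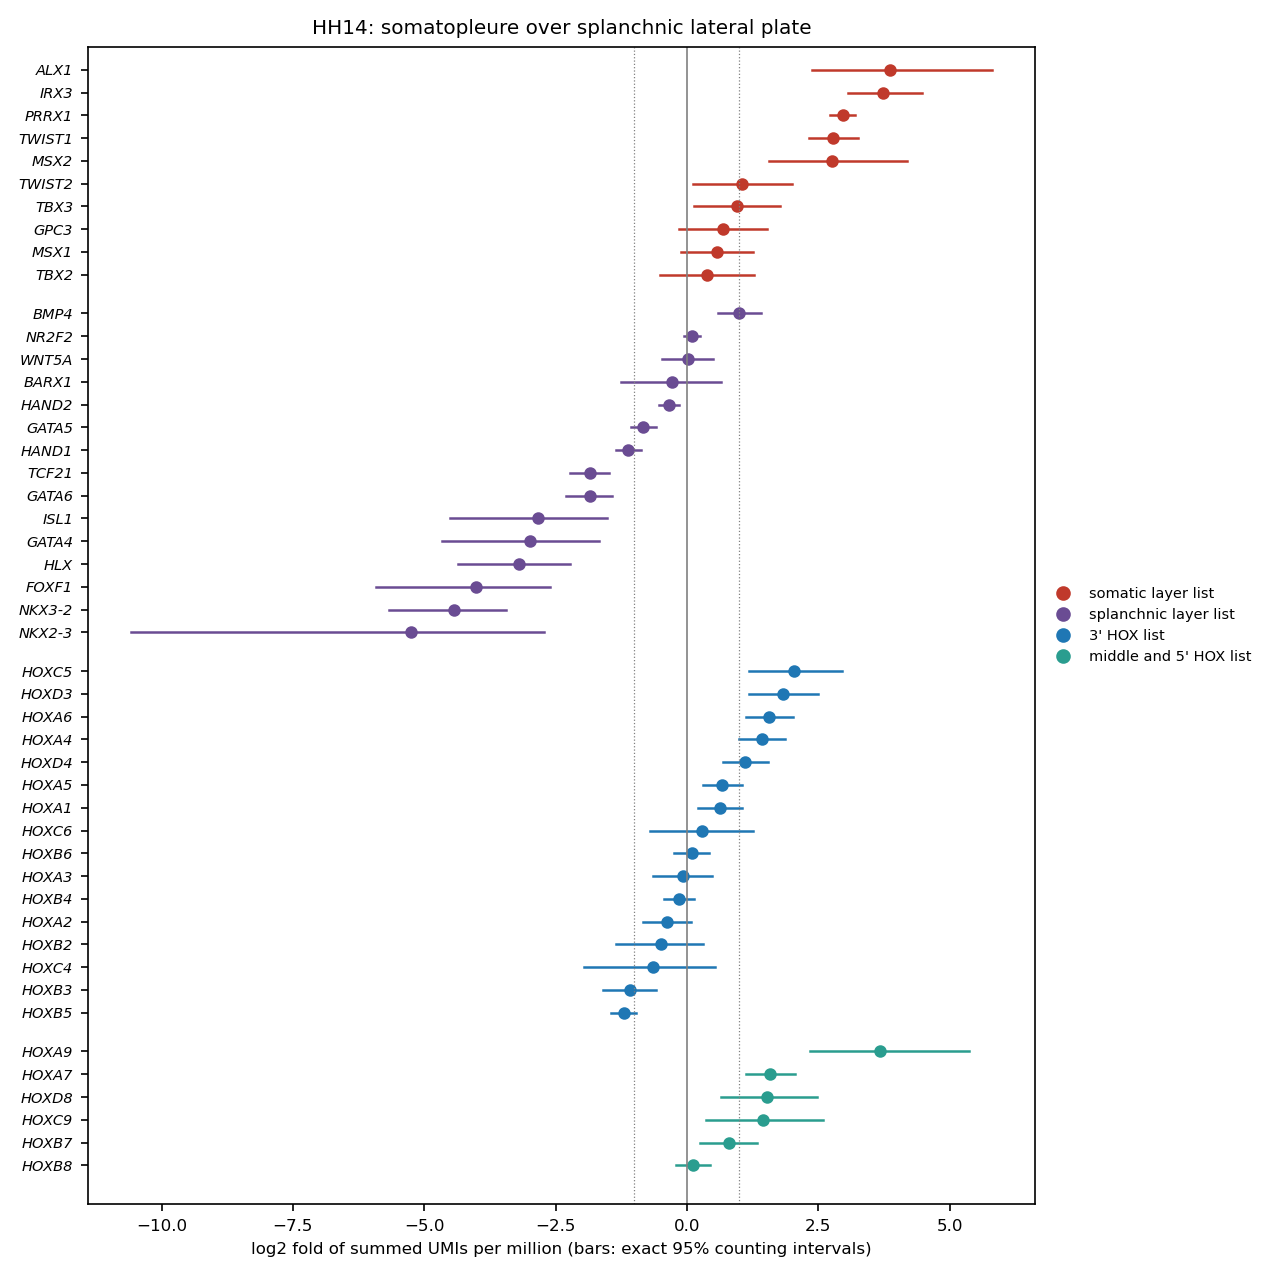
Log2 fold of somatopleure over splanchnic lateral plate at HH14 for the measured genes of the somatic, splanchnic, 3′ HOX and middle and 5′ HOX lists, 1 point a gene with its exact 95% interval. Dotted lines mark 2-fold; 6 of 10 somatic genes, the class markers IRX3, PRRX1 and TWIST1 among them, lie above and 9 of 15 splanchnic genes below.

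The amnion is the extraembryonic continuation of the somatopleure. At HH14 the somatopleure had 198 of 6223 measured genes (3.18%) past 2-fold higher and 715 (11.5%) past 2-fold lower. The counts were 243 and 483 of 5602 measured genes against the 104 depth-limited amnion cells of 124. Of the 198 higher genes, 182 were measured again with these cells and 143 were still past 2-fold, as were 433 of 540 of the lower ones. Contractile and epithelial genes were on the lower side, 5 of 11 and 3 of 3 measured, with none higher. ACTA2, smooth muscle actin, was at 8.84 CPM in somatopleure and 571 in amnion, 64.5-fold lower (35.8 to 130). KRT18, a keratin of simple epithelia, was at 880 against 2457 CPM, 2.79-fold lower (2.60 to 3.0). AQP1, a water channel, had 3 UMIs against 155, a ratio of 59.0 (19.8 to 289). Of 13 measured genes of an amnion list, 11 were lower and none higher. These values set the sheet-like amnion apart from a somatopleure that carried its keratins at lower levels and almost none of its smooth muscle actin.

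The somatic factors did not all follow the label in this comparison. IRX3 (3.27-fold, 2.36 to 4.59) and TWIST1 (2.80-fold, 2.14 to 3.70) were higher in somatopleure, but PRRX1 was 1.35-fold lower (1.23 to 1.47). MSX1, a homeobox gene that responds to BMP, was at 30.5 CPM in somatopleure and 581 in amnion, 19.0-fold lower (13.7 to 27.1). BMP genes were lower too, with 11 of 17 measured members lower and 1 higher. The ligand genes BMP2 and BMP5 were at 7.23 and 12.9 CPM against 91.7 and 132, 12.7-fold (6.42 to 28.5) and 10.3-fold lower (6.11 to 18.5), and BAMBI, a BMP pseudoreceptor, was 9.03-fold lower (7.17 to 11.5). GATA6, HAND1 and HAND2 were lower by 9.46-, 7.74- and 4.23-fold.

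On the higher side stood retinoic acid genes, 4 of 8 measured and none lower, with a median log2 fold of 1.29 against -0.08 over all measured genes. RDH10 was at 113 CPM against 7.34, 15.3-fold higher (7.57 to 36.2). CRABP2, a retinoic acid binding protein, was at 698 against 137 CPM, 5.11-fold higher (4.29 to 6.12), and STRA6, the receptor for retinol uptake, was 7.13-fold higher (3.25 to 18.5). OSR1, an odd-skipped zinc finger factor of lateral and intermediate mesoderm, had 113 UMIs in somatopleure and 2 in amnion, a ratio of 49.5 (13.4 to 414). NR2F1 and NR2F2, a pair of orphan nuclear receptors, were 5.57-fold (3.64 to 8.87) and 3.48-fold higher (2.90 to 4.18), and MYCN, a growth regulator, 6.57-fold (4.71 to 9.38). The retinoic acid genes and OSR1 thus separated embryonic somatopleure from amnion, with the keratins and actin on the other side.

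Against all 1148 other cells of the HH14 library, few genes were higher in the class. Of 9677 measured genes, 69 (0.713%) were past 2-fold higher and 1430 (14.8%) past 2-fold lower, with a median log2 fold of -0.23. The 981 depth-limited cells gave 54 and 1095 of 8967 measured genes. Of the 69 higher genes, 49 were measured again with these cells and 39 were still past 2-fold, as were 1017 of 1193 of the lower ones. ALX1 was 4.03-fold higher (2.67 to 5.99), IRX3 2.98-fold (2.50 to 3.54), FGF10 2.88-fold (1.82 to 4.46) and OSR1 2.12-fold (1.71 to 2.61). FZD2, a WNT receptor, was at 98.8 CPM against 46.9, 2.11-fold higher (1.71 to 2.58). BARX1, a homeobox gene of stomach mesenchyme, had 16 UMIs in 4 of the 165 cells, so its 3.30-fold excess (1.72 to 6.05) came from few cells. The other class markers fell short of 2-fold, PRRX1 at 1.85-fold (1.72 to 1.99) and TWIST1 at 1.90-fold (1.64 to 2.20). Most measured markers of surface ectoderm, endothelium and somite were lower. OSR1, given above as higher, is also on the intermediate mesoderm list, whose counts are not given here. Of 13 measured surface ectoderm markers 12 were lower, as were 9 of 12 endothelial and 5 of 5 somite markers, and none of these was higher. TFAP2A, with no UMI in the class and 420 elsewhere, was at least 17.4-fold lower.

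At HH18 the class was set beside limb bud mesenchyme, which arises from the somatic layer. Of 6869 measured genes, 105 (1.53%) were past 2-fold higher and 960 (14%) past 2-fold lower in somatopleure. Against the 85 depth-limited limb bud cells of 180 the counts were 61 and 173 of 3870 measured genes. Both the counts and the set of measured genes thus changed with the cells used. Of the 105 higher genes, 47 were measured again and 28 were still past 2-fold, as were 141 of 262 of the lower ones. Of 12 measured limb patterning genes 4 were lower and none higher, with a median log2 fold of -0.77, against -0.23 over all measured genes. TBX5 was at 56.7 CPM (22 UMIs) against 156 in limb bud mesenchyme, 2.75-fold lower (1.79 to 4.44), and its log2 fold was -1.46, or -1.43 with depth-limited cells. After thinning, TBX5 was seen in 12.5% of somatopleure cells (5.6 to 23.2%, 18.7% unthinned) and in 29.9% of limb bud cells (68.9% unthinned), against 0 of 94 thinned cells of an ectoderm class. LMX1B, which specifies the dorsal side of the limb, was at 12.9 against 71.4 CPM, 5.54-fold lower (2.33 to 17.3). RSPO2, a WNT agonist, was 5.78-fold lower (2.21 to 21.5). With depth-limited cells the log2 folds of LMX1B and RSPO2 were -2.45 and -3.39.

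Of 13 measured somatic layer genes 5 were lower and none higher (median -0.79). PRRX1 was at 1154 CPM against 1985, 1.72-fold lower (1.56 to 1.90), TWIST1 1.73-fold lower (1.45 to 2.07) and IRX3 1.15-fold lower (0.900 to 1.48), the last with an interval that spans 1. CRABP-I was 1.49-fold lower (1.32 to 1.69) at 719 against 1073 CPM. With depth-limited cells the log2 folds were -0.78 for PRRX1, -0.94 for TWIST1, -0.15 for IRX3 and -0.83 for CRABP-I. The cells taken for the class mattered too. In its 60 first-level lateral plate cells PRRX1 was at 1374 CPM (1240 to 1519) and CRABP-I at 919 (809 to 1038). TWIST1 was at 370 CPM (302 to 448) and IRX3 at 208 (158 to 269) in these cells. The excess in limb bud mesenchyme thus ran from within counting error for IRX3 to point ratios over 5-fold for LMX1B and RSPO2. Outside the blood vessel cells LMX1B and RSPO2 had only 5 and 4 UMIs in somatopleure. Their intervals, given above, reached well below 5-fold.

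Some epithelial and coelomic genes went the other way. Of 4 measured epithelial genes 2 were higher and 1 lower, and of 7 measured coelomic genes 3 were higher and 1 lower. KRT18, KRT7, OSR1 and PODXL, given next, were on the higher side, and the lower gene of each list is not detailed. KRT18 was at 719 CPM against 160, 4.50-fold higher (3.84 to 5.26), and KRT7 at 366 against 183, 2.0-fold higher (1.65 to 2.42). OSR1 had 13 UMIs against 21, a ratio of 3.91 (1.80 to 8.18), and PODXL, a surface sialomucin of coelomic epithelium, was 2.43-fold higher (1.72 to 3.39). KRT18 was seen in 64.1% of thinned somatopleure cells (65.3% unthinned), 22.6% of limb bud cells (50.6%), 85.0% of flank cells and 98.3% of amnion cells. Blood vessel cells of that library, at a median of 3545.5 UMIs, gave 3.7% (13.3% unthinned). With depth-limited cells the log2 folds were 2.71 for KRT18, 1.76 for KRT7, 3.17 for OSR1 and 0.95 for PODXL, the last short of 2-fold. EPCAM and CDH1, a pair of epithelial adhesion genes, had 9 and 5 UMIs in the class, too few to set it apart from limb bud mesenchyme. Without the 3 blood vessel cells the KRT18 fold was 4.63 (3.96 to 5.41). LDHA and CCND3, by contrast, were 3.68-fold and 3.82-fold higher with these cells and 1.17-fold and 1.29-fold without them.

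Mitotic genes were on the lower side in somatopleure. Of 17 measured genes of the G2/M phases, 9 were lower and none higher, with a median log2 fold of -1.13. CENPF, a kinetochore protein, was at 69.6 CPM against 379, 5.45-fold lower (3.72 to 8.31). The spindle genes ASPM and TPX2 were 2.78-fold (2.15 to 3.65) and 2.19-fold lower (1.81 to 2.66). The 20 genes of S phase had none past 2-fold in either direction and a median of -0.03. By the authors' phase annotation, 22 of 75 somatopleure cells (29.3%) were in G2/M, against 50% of limb bud cells, and 20% against 16.7% were in S. The phase calls read the same transcripts and depth as the levels, so they are no separate measurement. With depth-limited cells the log2 fold of CENPF was -2.29, next to -2.45 with all cells, and those of ASPM and TPX2 were -1.47 and -1.21.

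**Figure D4:**
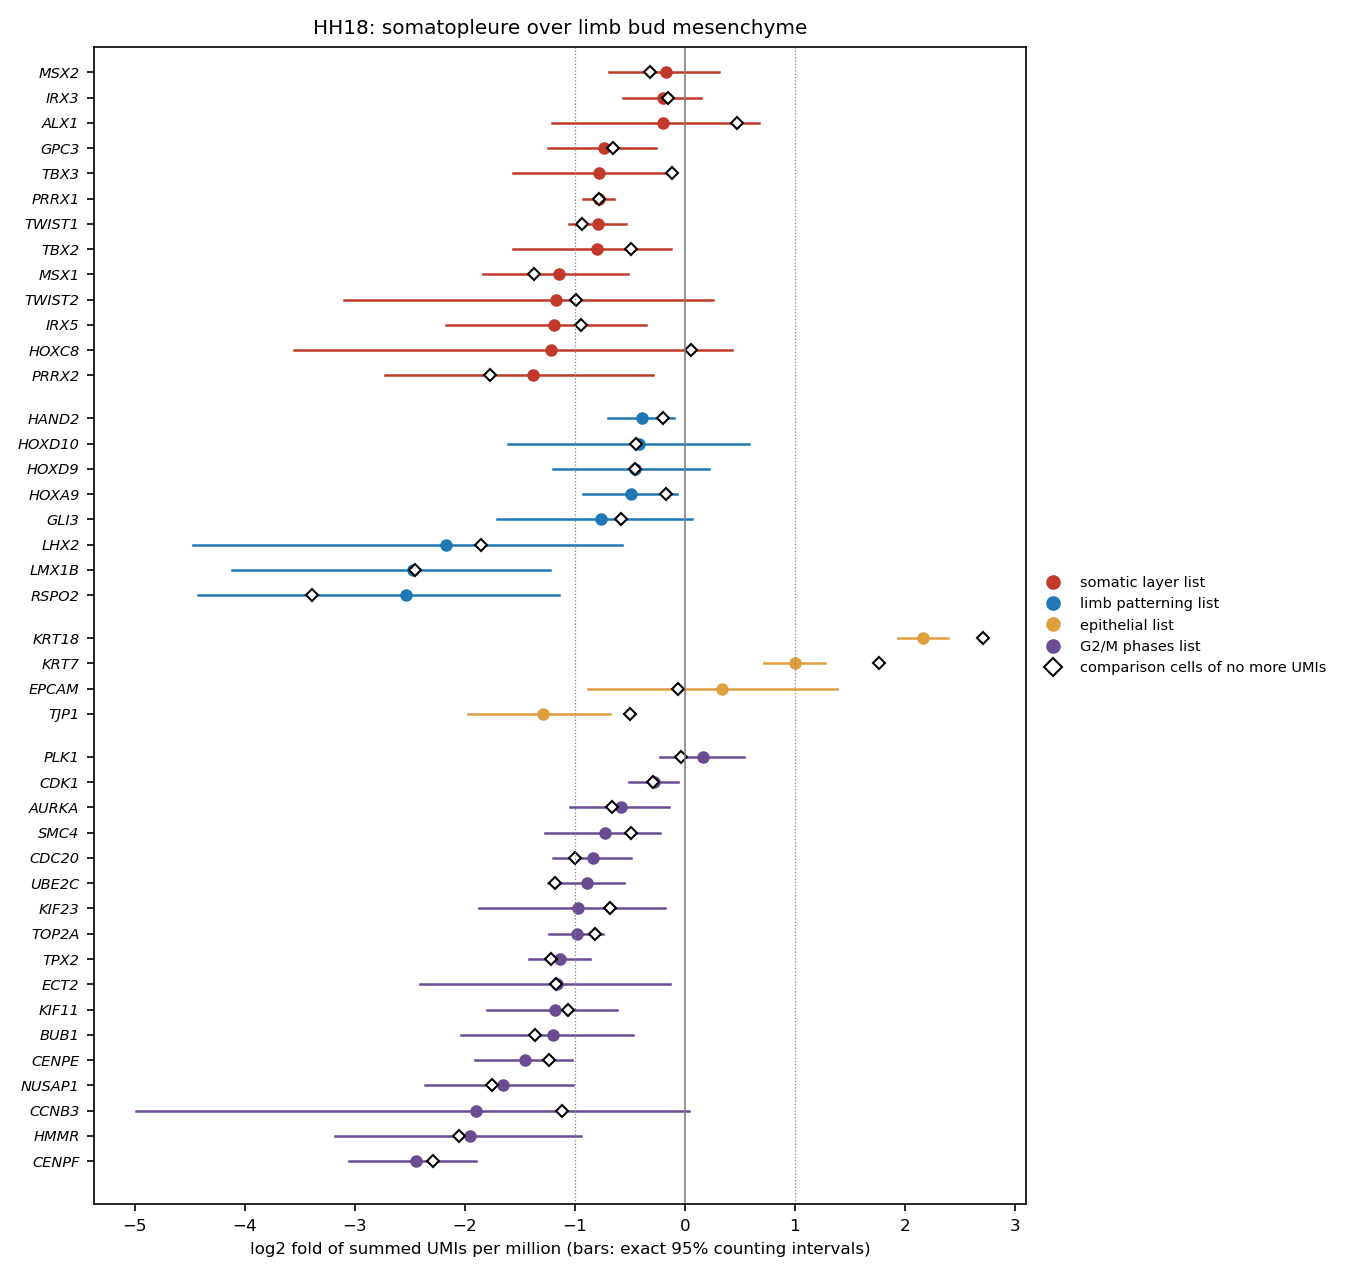
Log2 fold of somatopleure over limb bud mesenchyme at HH18 for measured genes of the somatic, limb patterning, epithelial and G2/M lists, with exact 95% intervals; open diamonds give the fold against depth-limited limb bud cells. Dotted lines mark 2-fold; KRT18 stands highest among the keratins at 4.50-fold, and 9 of 17 G2/M genes lie below the lower line.

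The flank lateral plate at HH18, in anatomy the body wall beside the limb, has 40 cells. Of 3876 measured genes, 112 (2.89%) were past 2-fold higher and 440 (11.4%) past 2-fold lower in somatopleure. With the 21 depth-limited flank cells the counts were 174 and 133 of 2529 measured genes, so the order of higher and lower was not stable. Of the 112 higher genes, 90 were measured again and 53 were still past 2-fold, as were 94 of 157 of the lower ones. TBX5 was at 56.7 CPM against 196 in flank, 3.47-fold lower (2.16 to 5.79), with a log2 fold of -1.79 and -1.50 depth-limited. TBX3, a T-box gene, was at 46.4 against 167 CPM, 3.61-fold lower (2.14 to 6.39), with -1.85 and -1.37. PRRX1 was 2.0-fold lower (1.79 to 2.24) and TWIST1 level at 1.00-fold (0.795 to 1.27), with depth-limited log2 folds of -0.75 and -0.16.

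Flank cells held more of several GATA, HAND and BMP pathway genes. Of 7 measured splanchnic layer genes 4 were lower in somatopleure and 1 higher, and of 11 BMP and TGF-beta genes 5 were lower and 1 higher. NR2F2, of the splanchnic list, and ID1 went the other way. Without the blood vessel cells NR2F2 was at 453 CPM against 201, 2.26-fold higher (1.75 to 2.93), and ID1 at 674 against 314, 2.15-fold higher (1.75 to 2.65). GATA6 was at 56.7 CPM against 322, 5.68-fold lower (3.62 to 9.33), with log2 folds of -2.51 and -2.79 depth-limited. GATA5 was 3.63-fold lower (2.54 to 5.30) and HAND1 2.66-fold (2.10 to 3.39), with depth-limited log2 folds of -2.14 and -1.05. HAND2 was 2.01-fold lower (1.60 to 2.55) with all cells but at a log2 fold of 0.16 with depth-limited cells, so its direction depended on which flank cells were used. BAMBI was 3.58-fold lower (2.70 to 4.82) and SMAD6, an inhibitor of BMP signalling, 5.08-fold lower (2.93 to 9.44), with depth-limited log2 folds of -1.61 and -1.82. KRT18 was 1.81-fold lower (1.57 to 2.09) here, which put somatopleure between limb bud mesenchyme and flank in this keratin. The adhesion gene ALCAM was at 95.3 CPM against 913, 9.58-fold lower (6.84 to 13.8). With depth-limited cells KRT18 was at a log2 fold of -1.12 and ALCAM at -3.13.

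Among the genes higher than in flank, CRABP2 was at 765 CPM against 247, 3.10-fold higher (2.50 to 3.87), and NPM3, a nucleolar chaperone, at 922 against 217, 4.24-fold higher (3.40 to 5.33). MSX1 had 22 UMIs against 9, a ratio of 3.01 (1.33 to 7.43). Of 16 measured G2/M genes 10 were lower and none higher, with CENPF, the lowest-ranked gene of this comparison, 10.6-fold lower (7.15 to 16.3). The spread was wide among cell cycle genes. Without the blood vessel cells CDK1 was at 1.08-fold (0.889 to 1.32) and PLK1 at 0.776-fold (0.564 to 1.06), both with intervals that span 1. With depth-limited cells the log2 folds were 1.41 for CRABP2, 2.20 for NPM3 and -2.50 for CENPF, and MSX1 had 1 UMI left in flank.

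Against all 664 other cells at HH18, 143 of 8897 measured genes (1.61%) were past 2-fold higher and 1424 (16.0%) past 2-fold lower. With the 450 depth-limited cells the counts were 73 and 698 of 6706 measured genes. Of the class markers, TWIST1 at 1.08-fold (0.904 to 1.29) and PRRX1 at 1.04-fold lower (0.943 to 1.14) no longer stood out. IRX3 was 1.50-fold higher (1.17 to 1.89), short of 2-fold. Limb bud mesenchyme made up 180 of the 664 other cells. LIMD2, a LIM domain protein, was at 319 CPM against 117, 2.73-fold higher (2.23 to 3.30), SERPINF1, a secreted serpin, 3.21-fold (1.93 to 5.11) and OSR1 2.52-fold (1.29 to 4.55). With depth-limited cells the log2 folds were 1.54 for LIMD2, 1.61 for SERPINF1, 1.17 for OSR1, 0.99 for IRX3, 0.22 for TWIST1 and 0.29 for PRRX1. TIMP3, an inhibitor of metalloproteinases, was 4.48-fold higher with the 3 blood vessel cells, which held 26 of its 29 UMIs, and at 0.478-fold without them. Of 8822 genes measured in this comparison and in its HH14 counterpart, 5 were higher in both, DDR2, FZD2, OSR1, SCX and SERPINF1, which is 12.5% of the 40 called at HH14 and 3.62% of the 138 called at HH18. These 5 were named after their values were seen. Over all measured genes, 0.713% were higher in the HH14 comparison and 1.61% in the HH18 comparison. On the lower side 431 genes were called in both, 38.4% of 1121 at HH14 and 30.7% of 1403 at HH18. The shares lower over all measured genes were 14.8% and 16.0%. Genes of ectoderm were again lower, 10 of 13 measured markers, with CXCL14, a chemokine, at 3 UMIs against 1586, a ratio of 33.3 (11.4 to 161) and a depth-limited log2 fold of -5.25. Of the 143 higher genes, 57 were measured again with depth-limited cells and 43 were still past 2-fold, as were 612 of 873 of the lower ones.

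Between stages the class differed in level for a small share of genes. Of 5021 genes measured in the 75 HH18 and 165 HH14 cells, 131 (2.61%) were past 2-fold higher at HH18 and 169 (3.37%) past 2-fold lower, with a median log2 fold of -0.00. Stage and library cannot be told apart. Against the 126 depth-limited HH14 cells the counts were 102 and 69 of 3744 measured genes, and without the blood vessel cells 97 and 189 of 4972. Of the 131 higher genes, 77 were measured again with depth-limited cells and 57 were still past 2-fold, as were 49 of 62 of the lower ones. CRABP-I had the clearest excess at HH18, from 61.1 CPM at HH14 to 719 at HH18, 11.8-fold (9.10 to 15.4) and 12.1-fold (9.34 to 15.8) without blood vessel cells. It was seen in 10.3% of thinned cells at HH14 (21.8% unthinned) and 62.5% at HH18 (70.7%), with 6.4% in an ectoderm class at HH18.

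LIMD2 ranked next after CRABP-I, 3.43-fold higher at HH18 (2.64 to 4.45) without the blood vessel cells. HOX genes of the middle and 5′ groups, not among the 10 highest ranks, had 4 of 7 measured genes higher at HH18. None of them was lower, and their median log2 fold was 1.47. HOXA9 was at 34.6 CPM at HH14 and 134 at HH18, 3.88-fold higher (2.54 to 5.95). HOXD9 was at 8.84 and 51.5 CPM, 5.83-fold higher (2.66 to 13.5), and HOXD8 3.69-fold higher (2.25 to 6.07). Of the 15 measured 3′ HOX genes 1 was higher and none lower (median 0.10). Of 10 somatic layer genes 4 were higher and none was lower, with a median of 0.91. GPC3, a glypican, was at 21.7 and 103 CPM, 4.75-fold higher (2.84 to 8.05), MSX2 4.01-fold (2.45 to 6.59) and TBX2, a T-box gene, 2.77-fold (1.42 to 5.36). TBX5 was 2.28-fold higher (1.26 to 4.06) on 31 and 22 UMIs, and FGF10, at 1.22-fold (0.548 to 2.51), was not distinguishable between the libraries. COL1A1, fibrillar collagen, was at 86.8 and 281 CPM, 3.24-fold higher (2.46 to 4.26).

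Several developmental regulators were lower at HH18. NR6A1, an orphan nuclear receptor active in early trunk development, was at 189 CPM at HH14 and 30.9 at HH18, 6.11-fold lower (3.43 to 12.0). PRTG, an immunoglobulin-family receptor of early mesoderm, was at 947 and 229 CPM, 4.13-fold lower (3.33 to 5.18). LIN28A, an RNA-binding protein that blocks let-7 maturation, was 2.22-fold lower (1.57 to 3.22), and its paralogue LIN28B 1.66-fold lower (1.23 to 2.29). RDH10 was 2.73-fold lower (1.62 to 4.91), while ALDH1A2, which makes retinoic acid, stood at 344 and 374 CPM, 1.09-fold apart (0.893 to 1.31). The coelomic genes OSR1 and TCF21 were 2.71-fold (1.52 to 5.25) and 5.54-fold lower (2.07 to 20.9), though OSR1 at HH18 rested on 13 UMIs and TCF21 on 4. HAND2 and KRT18 differed little, by 1.07-fold (0.861 to 1.35) and 1.22-fold (1.07 to 1.40) below their HH14 levels.

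**Figure D5:**
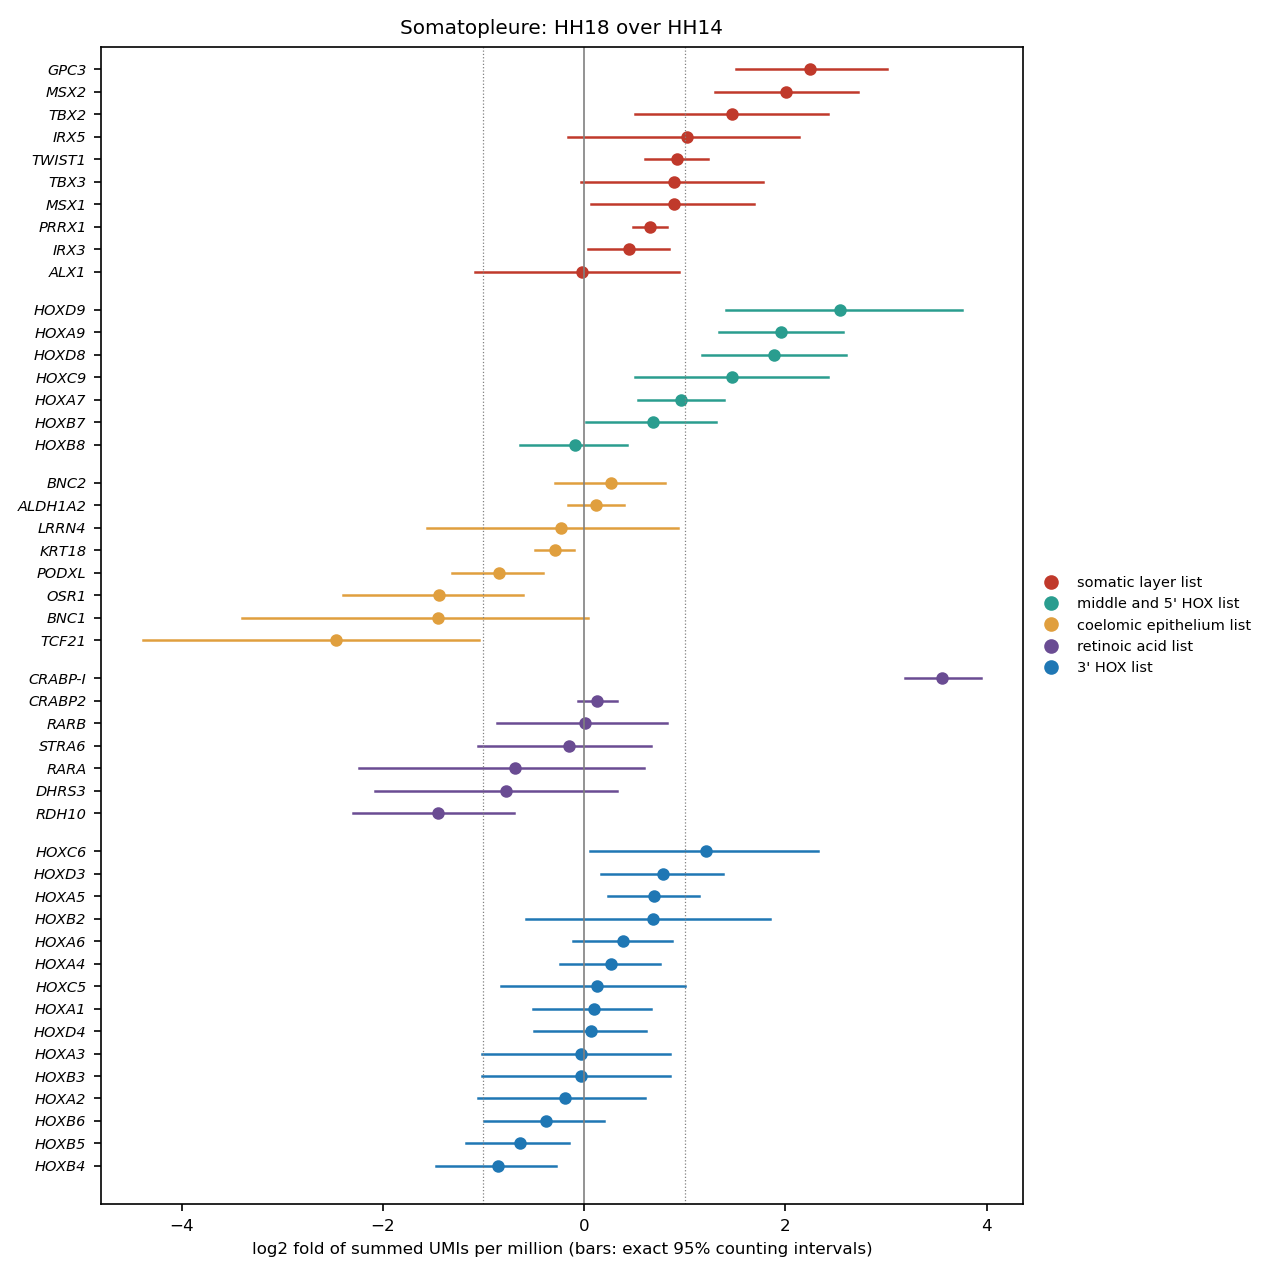
Log2 fold of HH18 over HH14 somatopleure for measured genes of the somatic, middle and 5′ HOX, coelomic, retinoic acid and 3′ HOX lists, with exact 95% intervals and dotted lines at 2-fold. CRABP-I stands farthest above, at 11.8-fold, and 4 of 7 middle and 5′ HOX genes lie above the upper line.

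At HH14 the authors placed 94 of the 165 cells (57.0%) in G1, 15 (9.09%) in S and 56 (33.9%) in G2/M. At HH18 they placed 38 of 75 (50.7%) in G1, 15 (20%) in S and 22 (29.3%) in G2/M. Between the stages none of 19 measured S phase genes was past 2-fold, and of 16 G2/M genes 1, the motility receptor HMMR, was lower, shares near the 2.61% and 3.37% over all measured genes. Without the blood vessel cells CENPF was past 2-fold lower at HH18 as well, at 0.459-fold (0.286 to 0.706).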

How the data were processed

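Cells came from single-cell 3′ libraries (10x Genomics, version 3.1 chemistry), per the labels' protocols, and, per the submitters' processing notes, Cell Ranger 4.0.0 and build GRCg6a were used. The authors deposited UMI counts for 16748 genes (12430 with a symbol, 4318 with an identifier only) and 3262 cells, not normalized, and an annotation table with first-level and finer classes, phases and the percent of mitochondrial UMIs. The authors' limits on cells are not given in the sources used here; the lowest cell had 2000 UMIs and the highest mitochondrial percent was 9.97. Summed counts equalled the annotated UMIs exactly in 84.4% of cells, with a largest difference of 9. Another 7 annotation columns were not used.

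Members were the cells with the finer class Somatopleure. Other classes were the finer class, or the first-level class for the 980 cells without one, with at least 20 cells. The libraries share 1 barcode and no somatopleure cell carries it. More than 1 UMI of W-linked genes, which were left out of the rankings, was seen in 70.3% of somatopleure cells at HH14. It was seen there in 66.5% of splanchnic, 62.9% of amnion, 42.9% of limb bud and 41.7% of flank cells. At HH18 the shares were 80% in somatopleure, 75% in limb bud and 67.5% in flank. The pooled sexes were thus not shown to be equally represented in each class. The intervals overlapped, but barely between HH14 somatopleure (62.7 to 77.2%) and flank (22.1 to 63.4%). These shares were not thinned, and flank cells were deeper. Summed UMIs of HINTW, a W-linked gene, were 2.22-fold higher (2.07 to 2.38) in HH18 somatopleure, without its blood vessel cells, than in flank. No doublet caller was run here, and whether doublets were removed before deposit is not given in the sources used here; 5 somatopleure cells at HH14 and 0 at HH18 exceeded the 95th percentile of UMIs in their library.

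Counts were summed per class and library and scaled to CPM. Folds carry exact conditional binomial intervals, shares exact Clopper-Pearson intervals, at 95%. With a count of 0, 3 counts over the group were used for a bound. Genes were measured at 30 UMIs in the 2 sums and counted past a fold of 2. Thinning to 2300 UMIs per cell used seed 1. The script was tested on simulated counts. Named genes were the 10 highest and 10 lowest folds by the interval bound nearest 1, the class markers, up to 4 members of each of 30 lists (414 of 460 listed genes present) and a few fixed genes; other list members were named after their values were seen. The members and lists were chosen with earlier results of these data known. Alternatives to scaling, filters, weighting of cells, thinning and choice of cells were run. Reads of near-identical paralogues, such as haemoglobin genes, may be split by the counting, and strand handling is not given in the sources used here. Python 3.11.15, numpy 2.4.6, scipy 1.17.1, pandas 2.3.3 and matplotlib 3.10.9 were used. No genome of this build was used here, so no sequence is shown.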

Additional observations from a re-analysis of the deposited data

How the results depend on the processing

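No paired analysis was possible because each stage has 1 library. Counts below are genes past 2-fold higher, then lower, each followed by the number of measured genes, which changed with the setting. With a minimum of 10 UMIs they were 520 and 532 of 7613 for HH18 against HH14, and 355 (higher) of 11294 for all other HH14 classes. They were 276 and 1217 of 8969 for splanchnic lateral plate, and 419 and 1392 of 8566 for amnion. Then came 1042 (higher) of 10611 for all other HH18 classes, 352 (higher) of 8960 for limb bud mesenchyme, and 300 and 1192 of 6772 for flank. With 100 UMIs they were, in the same order, 16 and 26 of 2318, 16 and 708 of 7340, 38 and 213 of 3842, and 80 and 233 of 3199. For the comparisons with HH18 classes they were 36 and 818 of 6221, 28 and 342 of 3900, and 37 and 107 of 1441.

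With cells thinned, 50 and 106 of 2365 genes differed between stages. Lower genes were 262 of 3564 against splanchnic lateral plate, 229 of 2867 against amnion and 834 of 5507 against other HH18 classes. Another 50 and 280 of 2816 differed from limb bud mesenchyme, and 86 of 1324 were lower than in flank. With cells in S and G2/M left out, 84 of 3645 were higher between stages and 414 of 5301 lower than splanchnic. From amnion 315 and 418 of 4464 differed, 607 of 4761 were lower than limb bud, and 62 and 79 of 1865 differed from flank. With a mean over cells, 210 of 5021 were higher between stages, 114 of 9677 than in other HH14 classes and 280 of 8897 than in other HH18 classes. With lateral plate cells alone, 275 of 4660 were lower between stages and 300 of 8870 higher than in other HH18 classes. Depth-limited cells, chosen after seeing the data, gave 69 of 3744 lower between stages and 73 and 698 of 6706 against other HH18 classes. They gave 61 and 173 of 3870 against limb bud, and 174 and 133 of 2529 against flank.

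Directions reversed for few single genes; log2 folds follow, and the cause was not tested. Between stages, LDHA was at -0.28 with lateral plate cells alone and -0.49 with S and G2/M cells left out, and MYH9 at -0.25 with lateral plate cells alone. Against other HH14 classes, HOXC8 was at 0.085 and WT1 at -0.15 with a mean over cells, and WT1 at -0.50 with lateral plate cells alone. Against amnion, CENPF was at 1.00 and KIF11 at 0.89 with S and G2/M cells left out. Against other HH18 classes with lateral plate cells alone, DES was at 0.70, RARG at 0.66, SPRY2 at 0.076, TGFBR2 at 0.50, LDHA at -0.48 and TIMP3 at -1.22. With S and G2/M cells left out FOS was at 0.082, HAS2 at 0.42, LDHA at -0.56 and TIMP3 at -0.86. Without blood vessel cells, an alternative chosen after seeing the data, LDHA was at -0.13, TAL1 at -1.01 and TIMP3 at -1.06. Several of these values rest on hardly any UMIs. Outside the blood vessel cells, HH18 somatopleure held 1 UMI each of DES, RARG, SPRY2, TGFBR2, HAS2 and TAL1, and 0 of FOS. A count of 0 was replaced by 3 counts, so a value for such a gene may be a bound and not a level. Against limb bud mesenchyme LDHA was at -0.12 with lateral plate cells alone and -0.31 with S and G2/M cells left out. Against flank HAND2 was at 0.16 with depth-limited cells. Median-of-ratios scaling left 747 single values within their counting interval, moved 4 and reversed 0. Totals without haemoglobin, mitochondrial and ribosomal genes moved 0 of 751. The other settings moved more. Thinning moved 150 and left 322. Leaving out S and G2/M cells moved 125, reversed 8 and left 462. Depth-limited cells moved 71, reversed 1 and left 560, and a mean over cells moved 63, reversed 2 and left 686. Lateral plate cells alone moved 59, reversed 10 and left 659, and leaving out blood vessel cells moved 36, reversed 3 and left 709.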

Other observations

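The 15 somatopleure cells at HH10 were 11 lateral plate, 3 primitive mesoderm and 1 somitic cell by the first-level annotation. None of the 3 class markers had a UMI in 8 of them, 1 marker had one in 5 cells and 2 markers in 2 cells.

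Counts for other gene groups between somatopleure and the splanchnic layer at HH14 are read against 1.75% higher and 9.64% lower over all measured genes. Of 13 measured genes of glycolysis and 8 of Notch signalling, none was past 2-fold in either direction. Of 20 genes of S phase 1 was lower and none higher, and of 17 genes of the G2/M phases 3 were lower and none higher, among them the kinesin KIF11, at 47.4 CPM against 106, 2.24-fold lower (1.67 to 3.05). The immediate early gene JUN was at 215 CPM against 448, 2.08-fold lower (1.81 to 2.40).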
